A study of Mus musculus with 8 samples.

Results

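The 9 genes described here belong to the T-box family of transcription factors: Tbx1, Tbx2, Tbx3, Tbx4, Tbx5, Tbx15, Tbx18, Tbx20 and Tbx21. They were taken by symbol from a table of 18901 genes measured by RNA-seq in mouse cheek skin. The study asked what loss of TBX20 from keratinocytes does to skin in which BNP, a natriuretic peptide that evokes itch, was injected. RNA came from 4 TBX20fl/fl;K14-Cre mice (knockout) and 4 TBX20fl/fl littermates (control), 1 library per mouse. All 8 mice were 7-week-old females of C57BL/6 backgrounds, and all carried floxed Tbx20 alleles. In the knockouts, Cre recombinase driven by the K14 promoter deletes exons 2 and 3 of Tbx20 in keratinocytes, while the other cells of the skin keep the gene. Every mouse, control mice included, received 10 µg of BNP in 10 µL into the left cheek and was euthanised 5 h after a 30 min recording. The comparison is therefore of genotypes within BNP-injected skin, and skin without BNP was not analysed here. Mice are named below by genotype and by the replicate number of the labels.

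T-box proteins share a DNA-binding domain, the T-box, which recognises sites built on the bases AGGTGT. Some members mainly activate genes (TBX1, TBX4, TBX5, TBX21), others mainly repress them (TBX2, TBX3, TBX15, TBX18), and TBX20 can do either. Most are known from the embryo, where they set up the heart, the limbs and the face. In skin, TBX15 patterns the dermis and coat colour, TBX18 marks precursors of the dermal papilla, and TBX1 acts in stem cells of the hair follicle. TBX21, also called T-bet, directs type 1 immunity in T cells and natural killer cells.

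The deleted stretch of Tbx20 is shown because it defines the genotypes. Tbx20 lies on the minus strand of chromosome 9 from 24720812 to 24774303 in RefSeq (GRCm38.p6), and its longer GENCODE M21 transcript ends further downstream, at 24718138. Exon 2 (chr9:24770680-24770929) and exon 3 (chr9:24769653-24769817) are coding throughout and together hold 415 bases, a number that leaves a remainder of 1 when divided by 3. The sequences are those of the GENCODE M21 transcripts on GRCm38. Should exon 1 be joined directly to exon 4 (chr9:24765666-24765774), the reading frame would hold 42 codons before the junction and 24 further codons, and the first stop codon would be the bases 72 to 74 of exon 4, set in capitals.
Tbx20 exon 2: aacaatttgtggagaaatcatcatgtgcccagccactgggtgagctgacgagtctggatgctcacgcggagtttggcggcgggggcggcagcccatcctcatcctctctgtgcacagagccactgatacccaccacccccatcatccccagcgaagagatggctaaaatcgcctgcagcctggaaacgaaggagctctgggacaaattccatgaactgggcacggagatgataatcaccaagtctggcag
Tbx20 exon 3: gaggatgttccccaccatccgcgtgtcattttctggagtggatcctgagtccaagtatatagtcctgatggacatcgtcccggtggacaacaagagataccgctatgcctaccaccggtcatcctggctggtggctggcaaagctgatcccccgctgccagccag
Tbx20 exon 4: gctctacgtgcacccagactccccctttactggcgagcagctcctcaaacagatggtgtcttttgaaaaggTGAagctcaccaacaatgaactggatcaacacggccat

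The total count was 16056282 to 19880654 per mouse, and 3 counts, taken as the detection floor, correspond to 0.151 to 0.187 CPM (reads scaled to a library of fixed size) (counting error only). Krt14, the basal keratin whose promoter drives Cre, was at 1075 to 1572 FPKM (the same scale, per kilobase of transcript) in every mouse. The tissue also held skeletal muscle, whose 10 markers summed to 8820 to 15900 FPKM, against 2990 to 4430 FPKM for 11 keratinocyte markers. Control mouse 2 stood apart from the others: its factor in TMM normalisation, which scales for library composition, was 0.735, against 1.007 to 1.075 in the other 7 mice, and it had the lowest FPKM of the 8 mice in 53.1% of the genes tested. Results that rest on it are given with and without it. Its counts also followed transcript length differently from those of the other mice, so a trend with length was fitted in each mouse, and values with that trend taken out are given where they differ.

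Tbx20 itself was at the limit of detection in both genotypes. The 4 knockout mice had 2, 1, 0 and 1 counts (rounded, replicates 1 to 4) and the control mice had 2, 1, 0 and 3. In FPKM the knockout mice were at 0.02, 0.01, 0 and 0.01 and the control mice at 0.04, 0.01, 0 and 0.02. The groups overlapped, and 1 mouse of each genotype had no count. The sum of 4 counts against 6 gave a ratio of 0.626, relative to total counts, with an exact 95% interval of 0.13 to 2.64 (counting error only). Counts scaled by edgeR gave a log2 fold change of -0.73 (95% interval -2.8 to 1.34), which was -0.35 without knockout mouse 3 and -1.14 without control mouse 3. Its adjusted p was 0.662 in the quasi-likelihood fit of edgeR, with Benjamini-Hochberg adjustment over all genes tested, as for every edgeR adjusted p below. A change of Tbx20 was thus not detectable at this depth, and these libraries do not check the genotype. The count covers the whole gene, and the deleted exons are 4.56% of the 9091 bases of the longer annotated transcript and 23.0% of the 1801 bases of the shorter one, so that transcripts lacking them would still be counted.

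The members spanned a wide range of levels, from a mean over the 8 mice of 0.0138 FPKM for Tbx20 to 36.5 FPKM for Tbx15. Tbx15 was the highest in all 8 mice, followed by Tbx1, Tbx18, Tbx3, Tbx2, Tbx5, Tbx4, Tbx21 and Tbx20 in the order of their mean FPKM. Tbx15 made up 64.7% to 80.4% of the summed FPKM of the family in each mouse, and Tbx15 and Tbx1 together made up 88.6% to 91.4%. Among all genes in the table, 87.1% had a lower mean FPKM than Tbx15, 57.3% a lower one than Tbx1 and 35.7% a lower one than Tbx18. For Tbx20 the share was 5.27%. The ranges over the 8 mice did not overlap between Tbx15 and Tbx1, between Tbx1 and Tbx18 or between Tbx21 and Tbx20. The other neighbours overlapped in range, yet within a mouse Tbx18 exceeded Tbx3, Tbx3 exceeded Tbx2, and Tbx5 exceeded Tbx4 in 8 of 8 mice. Tbx2 exceeded Tbx5 in 6 of 8 mice and Tbx4 exceeded Tbx21 in 5 of 8, and in the control mice alone Tbx21 stood above Tbx4. Leaving out any single mouse left the order over the rest as it was.

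**Figure D1:**
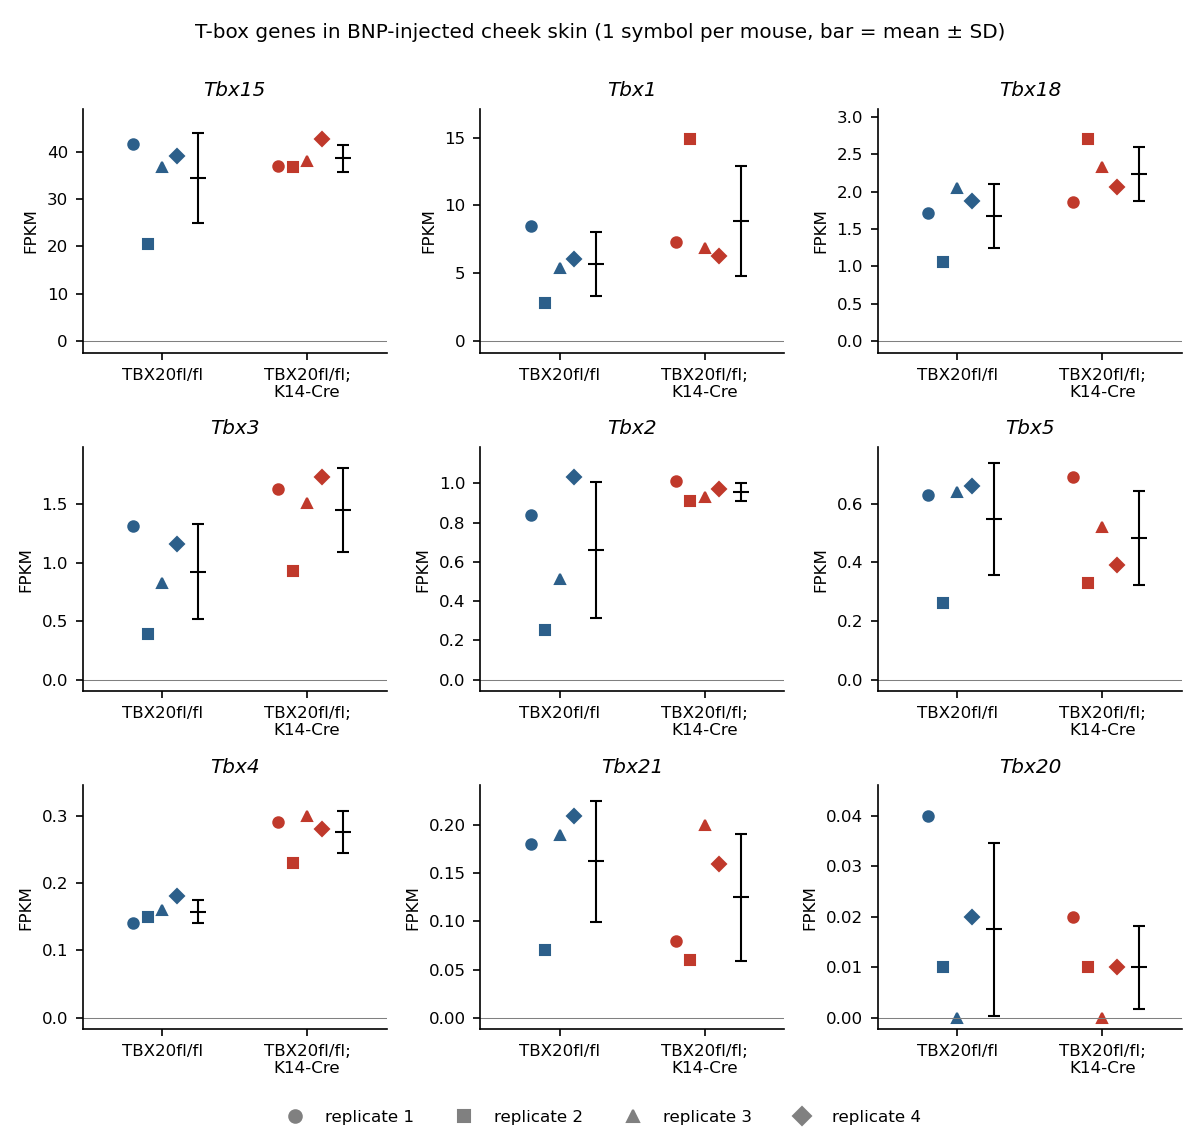
FPKM (y axis, linear, a separate scale per gene) of the 9 T-box genes in control (TBX20fl/fl) and knockout (TBX20fl/fl;K14-Cre) skin, with 1 symbol per mouse, its shape giving the replicate number, and a bar for the mean ± SD of 4 mice. Tbx4 is the gene whose groups do not overlap, and control mouse 2 (square) is the lowest of the 8 mice for Tbx15, Tbx1, Tbx18, Tbx3, Tbx2 and Tbx5.

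No T-box gene passed an adjusted p of 0.05 between knockout and control skin. All 9 had the 10 counts over the 8 mice needed to be tested, 0 of 9 passed (smallest edgeR adjusted p = 0.498), and 0.0% of the 17124 genes tested passed. Without adjustment 0 of 9 members had a p under 0.05, against 8.36% of all genes tested. DESeq2's Wald test called 0 members and 10 genes, or 0.0584% of the table. The log2 fold change was above 0 for 6 members and below 0 for Tbx5, Tbx20 and Tbx21, beside 52.5% of all genes above 0. In FPKM 1 of 9 members did not overlap between the groups, against 7.05% of genes tested. A level in whole skin cannot tell fewer cells of a type from less RNA per cell.

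Tbx4 was the member whose groups did not overlap. It encodes a hindlimb and lung mesenchyme factor, and lies on the plus strand of chromosome 11 (85886367 to 85916097), 44.4 kb downstream of Tbx2. Its FPKM was 0.29, 0.23, 0.3 and 0.28 in knockout mice 1 to 4 and 0.14, 0.15, 0.16 and 0.18 in control mice 1 to 4. In FPKM every knockout mouse was above every control mouse, and control mouse 2 lay within the range of the other control mice. In CPM scaled by TMM the groups still did not overlap but nearly met. There control mouse 2 was the highest control mouse at 0.593, beside the lowest knockout mouse, mouse 2, at 0.618. The means were 0.275 ± 0.0311 and 0.158 ± 0.0171 FPKM (SD, n = 4 each), and the two-sided exact permutation test over 70 assignments gave p = 0.0286, the smallest it can give, with no adjustment over genes. The values rest on 16, 13, 17 and 16 counts in the knockout mice and 8, 7, 9 and 10 in the control mice, a ratio of 1.71 with an exact 95% interval of 1.11 to 2.68 that covers counting error only. In counts this was a log2 fold change of 0.61 (95% interval -0.02 to 1.25, edgeR adjusted p = 0.498). A block for the replicate number gave 0.62 (edgeR adjusted p = 0.405), and omission of control mouse 2 gave 0.70 (edgeR adjusted p = 0.638). The unadjusted p of Tbx4 was under 0.05 in 7 of 19 alternative fits, among them that without control mouse 2 (edgeR unadjusted p = 0.0408), where 7.69% of all genes passed, and that without knockout mouse 2 (edgeR unadjusted p = 0.0448), where 5.47% did. Over all genes tested, 5.19% were higher in every knockout mouse than in any control mouse in FPKM, and 3.65% in scaled CPM.

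Tbx5, the forelimb and heart counterpart of Tbx4, did not show that separation. It lies on chromosome 5 (119796514 to 119885220, plus strand), 111.8 kb from Tbx3. Knockout mice 1 to 4 had 0.69, 0.33, 0.52 and 0.39 FPKM and control mice 0.63, 0.26, 0.64 and 0.66. Control mice 1, 3 and 4 were tightly grouped, with control mouse 2 the lowest of the 8. In counts its log2 fold change was -0.31 (95% interval -1.01 to 0.39, edgeR adjusted p = 0.595). It was -0.46 without control mouse 2, -0.55 without knockout mouse 1, -0.17 without knockout mouse 2 and -0.19 without knockout mouse 4. The exact permutation test on FPKM gave p = 0.657 (two-sided, n = 4 each).

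Tbx2 and Tbx3 encode repressors that hold back cell cycle inhibitors, and both are paired on their chromosomes with an activator of the family, Tbx4 and Tbx5. Tbx2 (chromosome 11, 85832615 to 85841948, plus strand) was at 1.01, 0.91, 0.93 and 0.97 FPKM in knockout mice 1 to 4. In control mice it was at 0.84, 0.25, 0.51 and 1.03. The knockout mice lay close together and the control mice were spread, with coefficients of variation of 4.64% and 52.7%. Tbx2's log2 fold change was 0.43 (95% interval -0.27 to 1.14, edgeR adjusted p = 0.519), and the exact permutation test on FPKM gave p = 0.171. Without control mouse 4, the highest of the 8, the groups did not overlap (exact permutation test over 35 assignments, p = 0.0286), as in 15.7% of all genes tested without that mouse. Without control mouse 2 Tbx2's log2 fold change was 0.23, and without control mouse 4 it was 0.69.

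Tbx3 (chromosome 5, 119670534 to 119684724, plus strand) was at 1.63, 0.93, 1.51 and 1.73 FPKM in knockout mice 1 to 4 and 1.31, 0.39, 0.83 and 1.16 in control mice 1 to 4. The groups overlapped, but the knockout mouse was the higher of each pair with the same replicate number, and mouse 2 was the lowest in both groups. Its log2 fold change was 0.53 (95% interval -0.15 to 1.21, edgeR adjusted p = 0.499), and the exact permutation test on FPKM gave p = 0.114. A block for the replicate number gave 0.57 (edgeR unadjusted p = 0.0215, edgeR adjusted p = 0.405), in a fit where 10.1% of all genes had an unadjusted p under 0.05. With a trend of each mouse with transcript length taken out, the log2 fold change of Tbx3 was 0.32, and without control mouse 2 it was 0.34. Without knockout mouse 2 it was 0.69 (edgeR unadjusted p = 0.0437, edgeR adjusted p = 0.569), where 5.47% of all genes had an unadjusted p under 0.05. A small overlap with the antisense gene Tbx3os1, 115 bases or 1.74% of its exonic sequence, cannot be separated in counts that were not stated to use strand.

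Tbx15, the highest member, had a difference close to 0. It lies on chromosome 3 (99240348 to 99354260, plus strand). Its FPKM was 37.0, 36.7, 37.9 and 42.6 in knockout mice 1 to 4 and 41.5, 20.5, 36.8 and 39.0 in control mice 1 to 4. Control mouse 2 was well below the rest, and the other 7 mice lay between 36.68 and 42.62. The means were 38.6 ± 2.76 and 34.4 ± 9.52 FPKM (SD, n = 4 each), and 39.1 ± 2.37 for the control mice without mouse 2. Its log2 fold change was 0.03 (95% interval -0.31 to 0.38, edgeR adjusted p = 0.906), the narrowest interval of the family. It turned to -0.07 without control mouse 2, to -0.08 with the length trend taken out and to -0.01 without knockout mouse 4, so its sign was not settled.

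Tbx18 lies on the minus strand of chromosome 9 (87702800 to 87731260). Knockout mice 1 to 4 had 1.86, 2.70, 2.33 and 2.06 FPKM and control mice 1.72, 1.06, 2.05 and 1.87. The knockout mouse was the higher in 4 of 4 pairs, though the groups overlapped (p = 0.114 by the exact permutation test). From counts, the change was 0.28 on the log2 scale (95% interval -0.12 to 0.68, edgeR adjusted p = 0.502) and 0.03 with the length trend taken out. It was 0.18 without knockout mouse 2 and 0.20 without control mouse 2. A locus of unverified status on the opposite strand, D030062O11Rik, overlaps 970 exonic bases of Tbx18. Of the 50-base stretches of Tbx18 transcripts, 18.3% are found in other genes too, and its count is less certain for that. The dermal papilla genes, a list of 14 genes of the cells that TBX18 marks in development, had a summed FPKM of 110.0 to 162.0 in knockout and 98.5 to 134.0 in control mice. Of them, 12 had a log2 fold change above 0, against 52.5% of all genes. Their median was 0.39, and 0.14 without knockout mouse 2. At an unadjusted p under 0.05 in edgeR, 2 were higher and 1 lower, beside 2.45% and 5.91% of all genes.

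Tbx1 had the widest spread among the 4 knockout mice of the members above 1 FPKM. It lies on the minus strand of chromosome 16 (18580979 to 18590671). Its FPKM was 7.33, 14.9, 6.88 and 6.31 in knockout mice 1 to 4 and 8.49, 2.80, 5.41 and 6.04 in control mice 1 to 4. Knockout mouse 2 was the highest of the 8 and control mouse 2 the lowest, while the other 6 mice lay between them and overlapped. Its log2 fold change was 0.54 (95% interval -0.21 to 1.29, edgeR adjusted p = 0.502). Without knockout mouse 2 it was 0.16 (edgeR adjusted p = 0.743). It was 0.39 without control mouse 2 and 0.65 with the length trend taken out. The exact permutation test on FPKM gave p = 0.257 with all mice.

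Tbx21 was low in both genotypes. It lies on the minus strand of chromosome 11 (97098007 to 97115331). Knockout mice 1 to 4 had 0.08, 0.06, 0.2 and 0.16 FPKM and control mice 0.18, 0.07, 0.19 and 0.21, from 25 and 31 counts in all. Mice of both genotypes were found at the low and at the high end. Its log2 fold change was -0.50 (95% interval -1.5 to 0.5, edgeR adjusted p = 0.558), and the exact permutation test on FPKM gave p = 0.429. Without knockout mouse 2 it was -0.28, and without knockout mouse 3 it was -0.81.

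**Figure D2:**
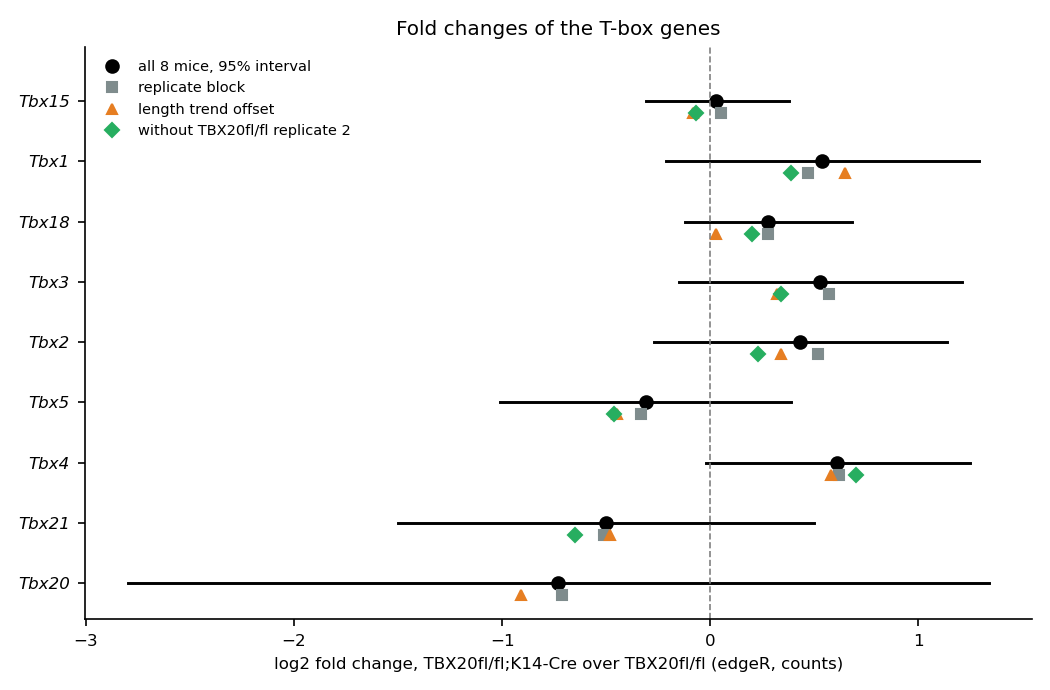
Log2 fold change of each T-box gene, knockout over control (x axis), in order of level, with the 95% interval of edgeR's fit over all 8 mice (black), and values with the replicate block, with the length trend as an offset and without control mouse 2 (Tbx20 has no value there). All 9 intervals contain 0, from that of Tbx15 (-0.31 to 0.38) to that of Tbx20 (-2.8 to 1.34).

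Control mouse 2 bore on the members unequally. Its Tbx2 was 0.315 of the mean of the other control mice, and the ratios were 0.355 for Tbx3, 0.362 for Tbx21, 0.404 for Tbx5, 0.421 for Tbx1, 0.523 for Tbx15 and 0.564 for Tbx18. For Tbx4 the ratio was 0.938, and for Tbx20, at the limit of detection, it was 0.5. It had the lowest FPKM of the 8 mice in 6 of 9 members, where the share over all genes tested was 53.1%. On the log2 CPM scale, where library composition is scaled, it differed from the mean of the other mice by -1.23 for Tbx2 and -1.15 for Tbx3, against -0.02 for Tbx4. Relative to the other mice, its trend with transcript length alone gave -0.43 for Tbx2, -0.82 for Tbx3 and -0.14 for Tbx4, and 0.42 for Tbx1, whose length implied by its counts and FPKM, 1874 bases, is the shortest of the family. Its part in the differences between genotypes beyond these values was not tested.

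**Figure D3:**
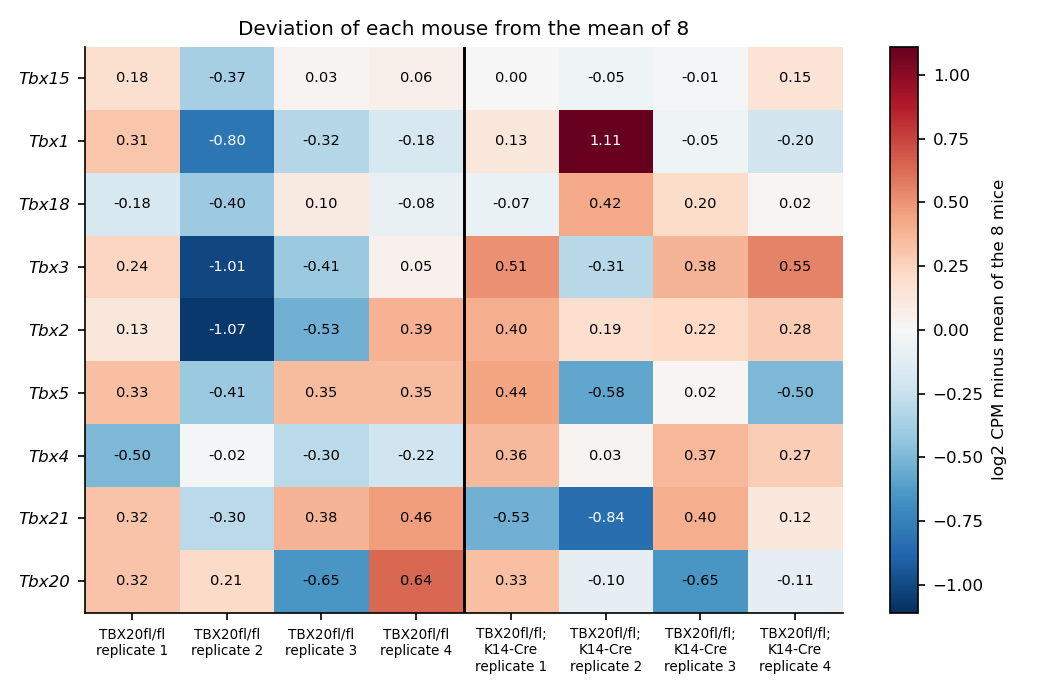
Log2 CPM of each T-box gene in each mouse minus its mean over the 8 mice (colour and printed value, a prior count of 2 added), control mice on the left and knockout mice on the right. Control mouse 2 is lowest for Tbx2 at -1.07 and Tbx3 at -1.01, and knockout mouse 2 is highest for Tbx1 at 1.11.

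The members varied together only in part. Over the 8 mice, which share the library effects just given, Pearson's r of log2 CPM was 0.87 between Tbx2 and Tbx3, 0.785 between Tbx3 and Tbx15, 0.744 between Tbx2 and Tbx15 and 0.712 between Tbx1 and Tbx18. It was 0.251 to 0.587 for the other pairs of the 5 members with a mean count of at least 50. These are descriptions over 8 points of both genotypes.

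For each of these 5 members, the genes most like it over the 8 mice were sought among 13298 genes. Tbx1 was followed by Irx2 (r = 0.985), a homeobox gene, Mycl (0.981), a gene of the Myc family, and Nek8 (0.968), a kinase gene. Like Tbx1, Irx2 had its extremes in the mice with replicate number 2, at 30.9 FPKM in knockout mouse 2 and 9.18 in control mouse 2. Tbx18 was followed by Zfp354c (0.978), Tbc1d8b (0.966) and Stil (0.965). Tbx2 was followed by Exoc7 (0.992), Naa15 (0.984) and Pla2g6 (0.984), Tbx3 by Nr1d1 (0.99), Ahnak2 (0.988) and Cdip1 (0.986), and Tbx15 by Trim25 (0.997), Nod1 (0.996) and Nlrc5 (0.992). Set beside the same levels, the length trend of the mice had an r of 0.911 with Tbx2, 0.862 with Tbx3 and 0.901 with Tbx15, against 0.606 for Tbx18 and -0.609 for Tbx1. As many as 12.8% of the genes compared had an r above 0.9 with Tbx2, against 0.662% with Tbx1. The part of library composition in these likenesses was not tested.

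Of the other T-box genes, Tbr1, Eomes, Tbx6 and Mga were in the table. Mga encodes a large protein that carries a T-box together with a domain for pairing with MAX. Its mean level, between those of Tbx1 and Tbx18, was 6.06 ± 0.101 FPKM in knockout mice and 4.36 ± 1.92 in control mice (SD, n = 4 each). Its groups did not overlap, with 5.93 to 6.17 FPKM in knockout mice and 1.51 to 5.53 in control mice (exact permutation test, p = 0.0286). Control mouse 2 was the lowest at 1.51. Mga had a log2 fold change of 0.44 (edgeR adjusted p = 0.51), 0.19 without control mouse 2, and -0.06 with the length trend taken out, so its direction depended on the scaling. Tbx6, a mesoderm factor, and Eomes, a factor of cytotoxic lymphocytes, had log2 fold changes of -0.50 and -0.34 on at most 15 counts per mouse (edgeR adjusted p = 0.552 and 0.777). Tbr1, a cortical neuron factor, had 1 count in 1 control mouse and none elsewhere.

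The genes that T-box proteins work with were then examined by role, with 0 of any list past an adjusted p of 0.05. Over all genes tested, 2.45% were higher and 5.91% lower in knockout skin at an unadjusted p under 0.05, and the median log2 fold change was 0.03. Among the cardiac partners and targets, 1 of 13 tested had an unadjusted p under 0.05, and the list's median was 0.10. With a mouse left out the median ran from -0.02 without knockout mouse 4, through 0.02 without control mouse 2 and 0.05 without knockout mouse 1, to 0.16 without control mouse 1, 0.18 without knockout mouse 2 and 0.20 without control mouse 4, so its sign was not settled. The gene under that threshold was Mycn, a Myc family gene that TBX20 is known to control in the embryonic heart. Mycn was at 0.26, 5.25, 1.14 and 0.43 FPKM in knockout mice 1 to 4 and at 0.32 to 0.60 in control mice. Knockout mouse 2 set the mean, and the log2 fold change of 1.90 (unadjusted p = 0.0488, edgeR adjusted p = 0.498) was 0.38 without it.

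Npr1, the gene for the receptor through which BNP acts, was at 8.28, 4.74, 8.54 and 9.22 FPKM in knockout mice 1 to 4 and at 6.58, 1.85, 5.08 and 6.78 in control mice 1 to 4. Knockout mice 1, 3 and 4 were above all control mice and knockout mouse 2 was not. Npr1 had a log2 fold change of 0.51 (95% interval -0.19 to 1.21, edgeR adjusted p = 0.502). With the replicate block it was 0.55 (edgeR unadjusted p = 0.00936, edgeR adjusted p = 0.405), where 10.1% of all genes had an unadjusted p under 0.05. Without control mouse 2 it was 0.28. Nppb, the gene for BNP itself, had a log2 fold change of -0.54 (95% interval -2.14 to 1.05, adjusted p = 0.673) at 0.51 to 3.13 FPKM in knockout and 0.63 to 3.41 in control mice. Its fold change was -1.26 without knockout mouse 2 (edgeR adjusted p = 0.569), -0.18 without control mouse 2 and -0.05 with the length trend taken out.

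Nppa, the gene for the atrial peptide ANP, is a classical target of the family in the heart, and its promoter is shown to let the T-box half-site be seen. It was at 1.86 to 2.56 FPKM in knockout and 1.24 to 3.56 in control mice (log2 fold change -0.46, edgeR adjusted p = 0.543). The window runs from 250 bases before to 50 bases after the start (RefSeq, GRCm38, chr4:148000472-148000771, plus strand), and the capitals mark the half-site AGGTGT, read on the opposite strand.
Nppa promoter: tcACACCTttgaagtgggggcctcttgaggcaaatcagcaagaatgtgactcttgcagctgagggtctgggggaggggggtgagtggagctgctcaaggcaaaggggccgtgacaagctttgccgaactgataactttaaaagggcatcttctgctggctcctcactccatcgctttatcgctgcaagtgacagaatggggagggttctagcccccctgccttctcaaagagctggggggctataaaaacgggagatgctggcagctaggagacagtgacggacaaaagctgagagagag
Searched on both strands, AGGTGT was present in 13.7% of 32851 RefSeq promoter windows of that length, and the longer AGGTGTGA, which contains it and is also present in the Nppa window, in 1.28%. Windows were matched for 5 of 9 members (Tbx1, Tbx4, Tbx18, Tbx20 and Tbx21, 6 windows in all), and AGGTGT was found in 1 of the 6, a window of Tbx1. It was not found in the windows of Npr1 and Nppb, which says only that these letters are absent from those bases.

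Among the type 1 lymphocyte genes that TBX21 is known to direct, 11 of 20 were lower at an unadjusted p under 0.05 and 0 were higher, with a median log2 fold change of -0.63. Whatever their p, 14 had a log2 fold change below 0 and 6 had one above 0. None passed after adjustment over all genes. Ccl4, a chemokine gene, was at 7.48, 22.04, 10.98 and 29.06 FPKM in knockout mice 1 to 4 and at 46.95, 94.24, 33.08 and 29.41 in control mice 1 to 4. Its groups did not overlap, though knockout mouse 4 and control mouse 4 were nearly level. Ccl4 had a log2 fold change of -1.85, and those of the granzyme genes Gzma and Gzmb were -1.24 and -1.21 (unadjusted p = 0.00934, 0.0111 and 0.0125, edgeR adjusted p = 0.498 for each). Il18rap, a subunit of the interleukin-18 receptor, had a log2 fold change of -0.59 (unadjusted p = 0.00603, adjusted p = 0.498). Ifng, the interferon gene that T-bet activates, was at 0.04 to 0.26 FPKM in knockout and 0.09 to 0.59 in control mice, on at most 11 counts per mouse (log2 fold change -1.58, adjusted p = 0.498). Il12rb2, a receptor gene of the same programme and among the 6 above 0, had a log2 fold change of 0.30 (adjusted p = 0.522).

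The count of lower type 1 genes ranged from 4 to 12 of 20 over the alternative fits. It was 7 without control mouse 2, 7 without knockout mouse 2 and 8 with the length trend taken out, in fits where 7.69%, 5.47% and 8.63% of all genes had an unadjusted p under 0.05 in either direction. It was 6 without knockout mouse 1 and 6 without control mouse 3, where 5.7% and 5.79% of all genes did. With the length trend taken out, 6 were lower and 1 was higher under the block (10.6% of all genes), and 4 were lower without control mouse 2 (6.29%). The count of 12 was reached without control mouse 4, among other fits, where 13.6% of all genes passed. With limma, 7 were lower on log2(FPKM + 1) and 5 on log2(FPKM + 0.1), beside 6.55% and 5.8% of all genes. Markers of lymphocytes and neutrophils are given beside it. The 9 T and NK cell markers in the table summed to 29.0 to 37.9 FPKM in knockout and 25.5 to 56.8 in control mice, and 2 of 9 were lower at an unadjusted p under 0.05, with 1 to 4 of 9 over the alternative fits. Whatever their p, 8 of these 9 markers had a log2 fold change below 0. Their median was -0.54, near the -0.63 of the type 1 list. The 7 neutrophil markers summed to 107.0 to 293.0 FPKM in knockout and 289.0 to 970.0 in control mice, and 5 of 7 were lower. No marker of either list was at 0 in every mouse, and Ncr1 is in both the type 1 and the T and NK cell lists. The part of these cells in the values of Tbx21 or of its targets was not tested.

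Of the genes that TBX2 or TBX3 is known to repress, 0 of 8 had an unadjusted p under 0.05 in either direction in edgeR's test (0 also after adjustment), and the median log2 fold change was 0.10. The median was 0.03 without control mouse 2, 0.15 without control mouse 1, 0.17 without knockout mouse 1 and 0.19 with the length trend taken out. At that threshold 1 of 8 was higher with the block, 1 with the length trend taken out, 1 without control mouse 1 and 1 without control mouse 2, beside 10.1%, 8.63%, 14.1% and 7.69% of all genes in either direction, so that a single gene of 8 is near the background. With the length trend taken out under the block 3 of 8 were higher, against 10.6% of all genes in either direction. Cdkn2a, a cell cycle inhibitor gene and a direct target in cultured cells, had 0 to 6 counts per mouse and a log2 fold change of -0.14 (95% interval -1.71 to 1.43, edgeR adjusted p = 0.915). It reversed to 0.28 with the length trend taken out.

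The signals that act in circuits with T-box factors had 5 of 16 genes higher at an unadjusted p under 0.05 and 0 lower, with a median of 0.29. The median was 0.14 without control mouse 2, 0.47 without control mouse 4 and 0.15 with the length trend taken out. The 5 genes were Shh, a secreted hedgehog signal, its receptor Ptch1, its effector Gli1, the Wnt ligand Wnt10b and the Wnt effector Lef1. Shh was at 0.1, 3.11, 0.28 and 0.04 FPKM in knockout mice 1 to 4 and at 0 to 0.12 in control mice. Lef1 was at 0.51, 4.24, 1.18 and 1.05 in knockout and 0.22 to 0.52 in control mice. Gli1 was at 1.99, 9.04, 2.18 and 2.41 in knockout and 0.33 to 2.02 in control mice. Knockout mouse 2 was far above the rest for all 3 genes, as it was for Tbx1 and Mycn.

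Log2 fold changes were 3.92 for Shh, 2.24 for Lef1, 1.59 for Gli1, 1.02 for Ptch1 and 0.75 for Wnt10b (unadjusted p = 0.0219, 0.00714, 0.0243, 0.0368 and 0.0299, edgeR adjusted p = 0.498 for each). Without knockout mouse 2 they were 1.19, 1.20, 0.76, 0.70 and 0.41, and 1 of 15 genes of the list, Lef1, had an unadjusted p under 0.05 (edgeR unadjusted p = 0.0102, edgeR adjusted p = 0.569), where 5.47% of all genes did. With the replicate block 1 of 16 did, against 10.1% of all genes, and without control mouse 3, 2 of 16 did, against 5.79%. In other fits the count of higher genes stayed near 5. It was 6 of 16 without knockout mouse 1 (5.7% of all genes) and 5 with the length trend taken out (8.63%). It was 4 without control mouse 2 (7.69%) and in DESeq2's Wald test (11.4%). Nrg1, the neuregulin gene, had a log2 fold change of -0.27 (95% interval -1.49 to 0.94, adjusted p = 0.782).

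Knockout mouse 2 also differed in markers. Its 6 melanocyte markers summed to 75.5 FPKM, against 12.3 to 24.0 in the other 7 mice, and its 14 dermal papilla genes to 162.0, against 98.5 to 134.0. Its skeletal muscle sum of 8820 FPKM was the lowest of the 8. The hair follicle stem cell genes, the list nearest to the known role of TBX1, summed to 850.0 FPKM there, within the 641.0 to 1150.0 of the control mice, and most of that sum was Krt15 and Cd34. The list was split in that mouse. Of its 9 genes, 6 were at their highest of the 8 mice there, among them the transcription factor gene Lhx2 at 17.04 FPKM (2.16 to 5.83 in the other 7 mice) and the receptor gene Lgr5 at 5.30 FPKM (0.86 to 2.39). Cd34 was at its lowest of the 8 mice there, at 144.33 FPKM, and Krt15 at 621.80 FPKM was below control mice 1, 2 and 3. Over all mice, 2 of 9 hair follicle stem cell genes were higher at an unadjusted p under 0.05, the transcription factor genes Sox9 and Nfib (edgeR adjusted p = 0.498 for each). The count was 0 of 9 without knockout mouse 2 (5.47% of all genes in either direction), 3 (4.84%) or 4 (6.23%), without control mouse 3 (5.79%), with the block (10.1%) and with the length trend taken out (8.63%). It was 3 of 9 without control mouse 1 (14.1%) and 4 of 9 in DESeq2's Wald test (11.4%). The part of these markers in the Tbx1 value was not tested.

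**Figure D4:**
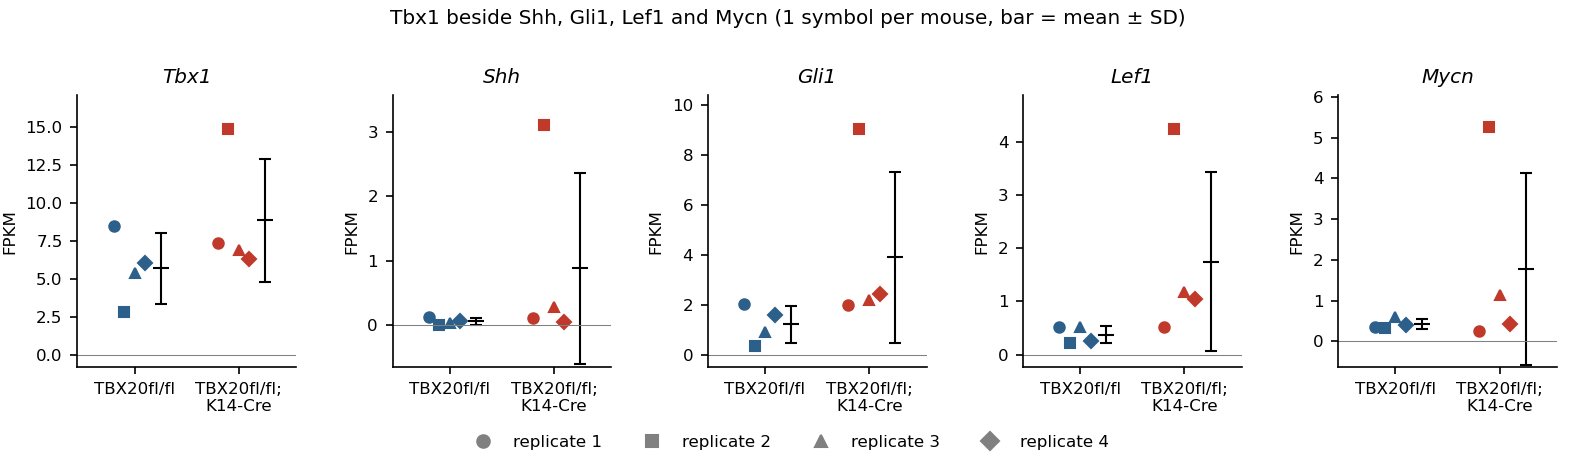
FPKM (y axis, linear, a separate scale per gene) of Tbx1, Shh, Gli1, Lef1 and Mycn in each mouse, with 1 symbol per mouse and a bar for the mean ± SD of 4 mice, whose lower end falls below 0 for Shh and Mycn in knockout mice. Knockout mouse 2 (red square) is the highest in each panel, from 3.11 FPKM for Shh to 14.9 for Tbx1.

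**Figure D5:**
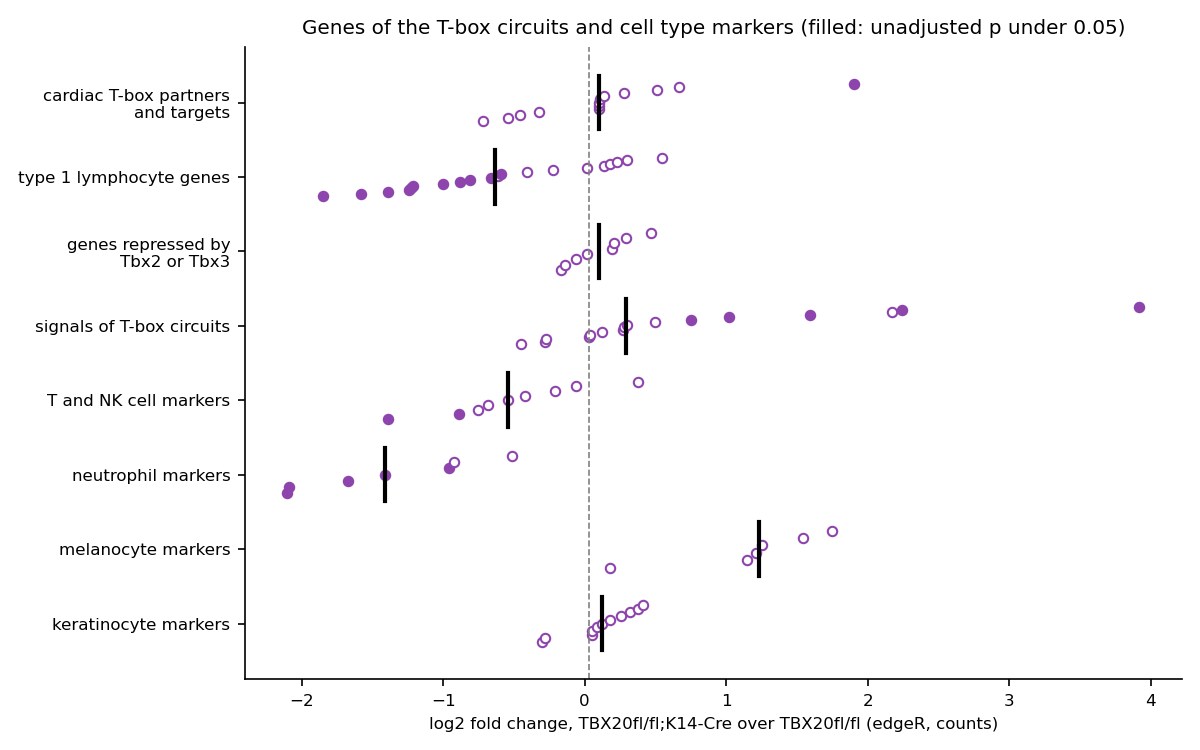
Log2 fold change (x axis, knockout over control, edgeR) of each tested gene in 4 lists of genes tied to T-box factors and 4 lists of cell type markers. Each circle is a gene (filled at an unadjusted p under 0.05), black bars are medians of lists, and the dashed line is the median of all genes tested, 0.03. The type 1 lymphocyte, T and NK cell, and neutrophil lists lie to the left, with medians of -0.63, -0.54 and -1.41.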

How the data were processed

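Each mouse gave 1 library of single-end 50-base reads. Per the study's methods, SOAPnuke (with -n 0.05, -q 0.2 and -l 15) was used to filter reads and HISAT to align them. The program that made the counts is not given in the sources used here. The authors deposited estimated counts (expected counts), which were not normalised and of which 69.0% of values above 0 were more than 0.005 from a whole number and 52.6% more than 0.05, and FPKM values made on the Dr. Tom platform. The deposited TPM values, counts divided by size factors, group means and fold changes with p-values of comparisons between mice were not used.

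Counts were rounded. A gene needed 10 counts summed over the 8 mice, which 17124 genes had, and knockout and control mice were compared by the quasi-likelihood test of edgeR 4.0.16 (TMM, R 4.3.3) with Benjamini-Hochberg adjustment over all genes tested and a threshold of 0.05. Standard errors and 95% intervals come from that fit. FPKM values of single genes were compared by two-sided exact permutation tests of the means (70 assignments). The edgeR, DESeq2 and limma tests, not the permutation tests, were also run on simulated counts, and the outcome is not given here. Alternatives used DESeq2 1.42.0 size factors and Wald test, other filters, limma 3.58.1 on log2(FPKM + 1) or log2(FPKM + 0.1), a trend with transcript length per mouse as an offset, the replicate number as a block, and omission of each mouse. P-values of the fits weigh the difference between genotypes against the spread between mice. Those of the permutation tests rank it among the possible assignments of mice to groups.

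The replicate numbers are taken to pair the mice because, across genes, deviations from the group mean correlated between mice of the same number (r = 0.323, 0.275, 0.176 and 0.108 for numbers 1 to 4). The mean for other pairs was -0.0672. Deviations sum to 0 within a group, so that mean largely mirrors the other values and is no separate support. For numbers 1 to 3 each mouse correlated best with its own number, but knockout mouse 4 did so with control mouse 1 and control mouse 4 with knockout mouse 3. The labels do not say what a number marks, and the mice are different animals.

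The members and lists were chosen with earlier results of these data known. Named genes are all members, the other T-box genes in the table, up to 4 genes per pathway list by smallest unadjusted p under 0.05, Npr1, Nppb, Nrg1, Ifng, Il12rb2 and Cdkn2a, and for each member averaging 50 counts or more the 3 genes with the highest correlation of log2 CPM. Nppa, Ptch1, Krt14, Ncr1, Tbx3os1, D030062O11Rik and the hair follicle genes Lhx2, Lgr5, Krt15, Cd34, Sox9 and Nfib were named outside that rule, after their values were seen. Positions and promoter sequences are from RefSeq (GRCm38.p6) and exon sequences from GENCODE M21. The T-box genes T (Tbxt), Tbx10, Tbx19 and Tbx22 were sought by symbol and were not among the 18901 genes.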

Additional observations from a re-analysis of the deposited data

Results flagged for a closer look

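In 24 groups of 4 mice, for the 9 members and the other T-box genes in the table, the highest or lowest mouse was compared with the rest by Dixon's ratio (its gap to the nearest mouse over the range of the group). It passed the 95% critical value in 3 groups, where about 1.2 would pass if the groups were independent. The groups share the same 8 mice, and the share passing over all genes was not computed. Control mouse 2, flagged below for Tbx5 and Mga, had the lowest FPKM of the 8 mice in 53.1% of the genes tested. Tbx1 was at 14.9 FPKM in knockout mouse 2, with the other knockout mice at 6.31 to 7.33. Tbx5 was at 0.26 FPKM in control mouse 2, with the other control mice at 0.63 to 0.66. Mga was at 1.51 FPKM in control mouse 2, with the other control mice at 4.86 to 5.53. Left out of that count are the 2 groups of Tbr1, which was at 0.01 FPKM in control mouse 3, from 1 count, and at 0 in the other mice, since with 1 value above 0 the ratio is 1 whatever that value is.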

How the results depend on the processing

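In 19 alternatives, 0 T-box genes passed an adjusted p of 0.05 (smallest 0.353 over the alternatives). Tbx20 had a value in only 9 of them and Tbx21 in 18, since filters on low values removed them from the others, and the other 7 members had one in all 19. No gene of the whole table passed in 18 of them, and 10 genes passed in DESeq2's Wald test. Leaving out a mouse gave 0 genes in each case, with 823 to 2405 genes at an unadjusted p under 0.05, against 1431 with all mice. That count was 823 without knockout mouse 3, 929 without knockout mouse 2, 2405 without control mouse 1 and 2311 without control mouse 4. With the replicate block, 0 genes and 0 members passed and 1723 genes had an unadjusted p under 0.05, so the pairing changed no call. Of 160 member fold changes recomputed, 155 kept their direction and their side of the threshold. The 5 that reversed were all of Tbx15, at -0.08 with the length trend as an offset, -0.08 with that offset and the block, and -0.10 with that offset without control mouse 2 (chosen after seeing the data). With a mouse left out, Tbx15 was at -0.07 (without control mouse 2) to 0.10, and at -0.01 without knockout mouse 4. The cause was not tested. The 1 member whose FPKM passed an exact permutation test, Tbx4, became 0 members with the sign-flip test over 4 pairs, which cannot go below p = 0.125, and 1 to 2 members when a mouse was left out (Tbx2 was added without control mouse 4). The order of levels kept all 9 places without any 1 mouse and 7 of 9 over the control mice alone. Depth limits Tbx20, Tbx21 and Tbx4, which had 10, 56 and 96 counts over the 8 mice.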
